A study of Mus musculus with 16 samples.

Results

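The proteasome genes were taken as all gene symbols of the form Psma, Psmb, Psmc, Psmd, Psme, Psmf or Psmg followed by a digit, kept where the mean over the 16 libraries was above 1 CPM (reads on a gene, scaled to a common total of reads on all genes). Of 24060 genes, 50 symbols matched and 47 were kept. The nearest values to the limit were 1.07 CPM for Psmc3ip, just inside, and 0.416 CPM for Psmb9, just outside. Of the 47, 45 encode subunits, assembly chaperones or regulators of the proteasome. The other 2 match in symbol only, namely Psmc3ip, a partner protein in meiotic recombination, and Psme2b, a copy of Psme2.

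RNA was sequenced from the somatosensory cortex of C57BL/6J mice aged 3 months that carried Aldh1l1-cre/ERT2 and RiboTag, all given tamoxifen some weeks earlier. The Aldh1l1 promoter drives Cre in astrocytes, where recombination adds an HA tag to a ribosomal protein, so that mRNA on astrocyte ribosomes can be pulled down (IP) and set against the cleared lysate of all cells (INPUT). Naïve mice stayed in the home cage, and stressed mice swam for 20 min and recovered for 90 min. There were 4 libraries each of naïve IP, naïve INPUT, stress IP and stress INPUT, with 16392876 to 25814364 reads on genes per library. The naïve and stressed mice thus share the transgenes and the tamoxifen, and neither the IP and INPUT of 1 mouse nor the sex of a mouse could be matched to libraries.

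The IP was of astrocytes by its markers. All 8 astrocyte markers were higher in IP than in INPUT, with log2 differences from 2.87 (Gjb6) to 4.504 (Kcnj10) in naïve mice, and all 8 neuron, 9 microglia and 7 endothelial markers were lower, by −3.76 to −4.74, −0.98 to −4.67 and −1.56 to −4.43. Of the 7 oligodendrocyte markers 6 were lower and Cnp was higher (0.37). The markers of the other cells were not at 0 in IP, where the neuronal Rbfox3 had 30.9 CPM and the microglial Cx3cr1 2.61 CPM in naïve mice. The astrocyte glutamate transporter Slc1a2 alone took 70370 CPM of naïve IP and 4015 CPM of naïve INPUT, and the median gene had a log2 difference of −0.64 in naïve and −0.63 in stressed mice. The IP to INPUT values are therefore given on the CPM scale and are to be read against that median.

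The proteasome is the large protease that breaks down proteins marked with ubiquitin. Its 20S core is a barrel of alpha and beta rings, whose proteolytic sites lie in the beta ring, and the 19S particle at its ends recognises, unfolds and feeds in the substrate through a ring of ATPases. In cells that receive interferon, the catalytic subunits Psmb5, Psmb6 and Psmb7 are replaced in new particles by Psmb8, Psmb9 and Psmb10 (the immunoproteasome), which alters the peptides made for antigen presentation. Subunit genes are induced together by the transcription factor Nfe2l1 (NRF1) when the proteasome is impaired, and some respond to its relative Nfe2l2 (NRF2) under oxidative stress, both through antioxidant response elements in promoters.

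To show where such an element lies in these genes, the core letters TGACNNNGC were searched on both strands in RefSeq promoters of GRCm38.p6, from 250 bases before to 50 after the start site. Promoters were found for 42 of the 50 symbols, and 6 of the 42 genes (14.3%) held the core, against 14.0% of all genes in the table. The stretch around each match follows, read 5′ to 3′ along the gene's strand, with the match in capitals. In Psme4, Psmc6 and Psmd12 the match is to the opposite strand.
Psmb5, chr14:54618024-54618053, minus strand: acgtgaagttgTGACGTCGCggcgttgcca
Psmb6, chr11:70525337-70525366, plus strand: actaaagagagTGACGGAGCgctttacgac
Psmd9, chr5:123228148-123228177, plus strand: tatctagccggTGACCCCGCccacttccaa
Psme4, chr11:30771757-30771786, plus strand: gcgctgcggctGCAGCGTCAccagaagagc
Psmc6, chr14:45329586-45329615, plus strand: gccagccagtaGCTAAGTCAggcattgctc
Psmd12, chr11:107479278-107479307, plus strand: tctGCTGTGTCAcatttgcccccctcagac

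An interferon-type core, GAAANNGAA, was in 7 of the 42 genes (16.7%, against 9.76% of all genes), and it is shown for the interferon-responsive activator gene Psme1, where the match is to the opposite strand. The CCAAT box, bound by NF-Y, was in 15 of the 42 (35.7%, against 41.1%). No match to TGACNNNGC or GAAANNGAA was found for Psmb8, Psmb9 or Psmb10. This says only that these letters were not in the windows searched, and not every symbol had a promoter to search.
Psme1, chr14:55578493-55578522, plus strand: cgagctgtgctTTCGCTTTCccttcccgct

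In naïve mice 32 of the 47 proteasome genes differed between IP and INPUT (limma on log2(CPM + 0.1) over 13339 genes, Benjamini-Hochberg adjusted p under 0.05), against 87.7% of all genes. Of these, 1 was higher in IP, Psmd11, and 31 were lower, against 23.7% of all genes higher and 64.0% lower. The median difference of the 47 was −0.40. This direction belongs to the CPM scale and flips with another: once libraries were rescaled by the median ratio, the median of the 47 was 0.25, with 25 higher and 6 lower, against 42.0% and 42.2% of all genes. On the CPM scale 36 of the 47 sat above the median gene in naïve mice and 36 of the 47 in stressed mice. After the rescaling 36 and 34 of the 47 were above 0. The IP and INPUT libraries did not overlap for 29 of the 47 in naïve mice, against 83.7% of all genes. In stressed mice they did not overlap for 32 of the 47, against 81.4% of all genes.

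The stressed mice, which share no library with the naïve mice, gave 34 of 47 genes different between IP and INPUT (86.1% of all genes), 2 higher (23.6% of all genes) and 32 lower (62.5%). The median was −0.44, and it turned to 0.18 after the rescaling, with 23 higher and 6 lower (41.0% and 41.3% of all genes). Across the 47 genes the differences in naïve and stressed mice had Pearson's r = 0.92 and Spearman's rho = 0.91, a description over genes that are not independent. The gene furthest apart was Psmg4, by 0.58.

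**Figure D1:**
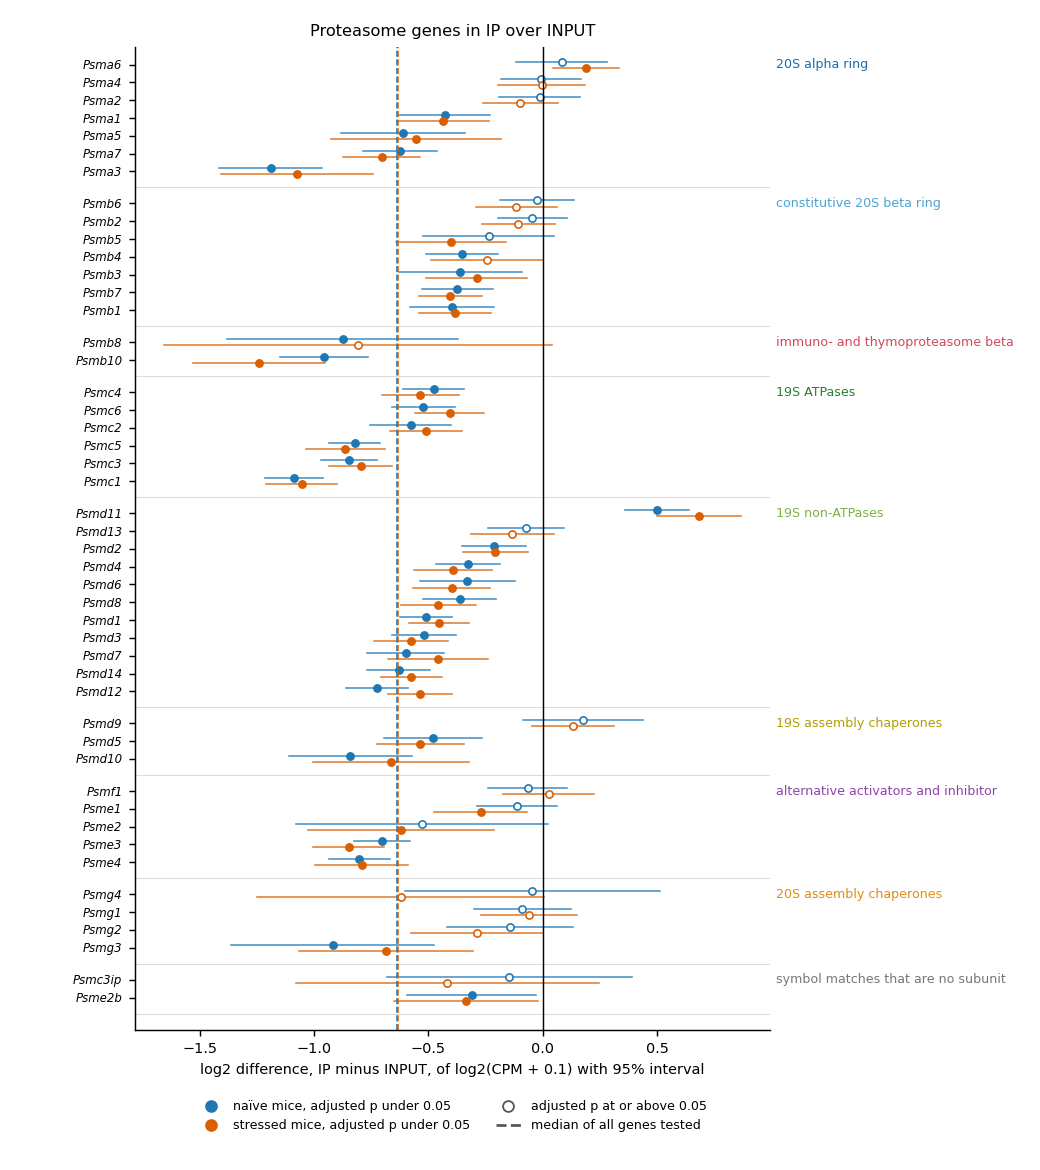
Difference in log2(CPM + 0.1) between IP and INPUT (x axis) for each of the 47 proteasome genes (y axis, by role), in naïve (blue) and stressed (orange) mice, with 95% intervals from the limma fit, filled points for adjusted p under 0.05 and dashed lines for the median of all genes. Of the 47 points in each comparison, 44 and 43 lie left of 0 and 36 right of the dashed line, so that the sign of most turns once libraries are rescaled to the median gene; Psmd11 lies furthest right, and Psma3, Psmb10 and Psmc1 furthest left.

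The call and its direction did not depend on scaling for 6 genes. Psmd11 was higher in IP, and Psma3, Psmb10, Psmc1, Psmc3 and Psmc5 were lower, on the CPM scale, after rescaling by the median ratio and after quantile normalization, in naïve and in stressed mice. All 240 fits of these 6 genes, over both comparisons and every setting and left-out library, gave the same call.

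Psmd11, the Rpn6 subunit of the 19S lid, lies on chr11:80428615-80473248 (GRCm38, plus strand). It had 39.8, 41.3, 43.0 and 45.4 CPM in naïve IP and 29.2, 29.5, 29.8 and 31.2 CPM in naïve INPUT. All 4 IP libraries were above all 4 INPUT libraries. The log2 difference was 0.50 ± 0.065 (SE), or 1.41-fold, with limma adjusted p = 6.7e-06 and an exact permutation p = 0.029, the smallest that 4 against 4 libraries allow. In stressed mice the values were 41.2, 42.0, 44.6 and 45.3 CPM in IP and 23.6, 26.9, 27.3 and 30.3 CPM in INPUT, again without overlap, and the difference was 0.68 ± 0.084. Against the median gene it stood 1.14 higher in naïve and 1.32 higher in stressed mice. Of the 69-base windows of its longest transcript, 13.6% also occur in transcripts of other genes, so reads there may not have been counted for it. The search did not tell copies elsewhere from genes that overlap in place.

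The alpha ring of the 20S core, which gates entry to the barrel, held both ends of the range among the core subunits. Psma3 had 6.66, 6.93, 7.26 and 8.22 CPM in naïve IP and 15.1, 16.1, 17.7 and 17.96 CPM in naïve INPUT. The IP libraries were thus all under every INPUT library, and the log2 difference was −1.19 ± 0.10 in naïve and −1.07 ± 0.15 in stressed mice. Of its windows 21.5% occur in other transcripts. At the other end, Psma6 had 39.7 to 44.2 CPM in naïve IP and 35.1 to 48.8 CPM in naïve INPUT, which overlapped (0.08 ± 0.092). Its stressed libraries did not overlap, with 42.4, 44.1, 45.6 and 46.1 CPM in IP and 37.1, 38.0, 40.1 and 41.0 CPM in INPUT, and it was called higher (0.19 ± 0.066, limma adjusted p = 0.017), a call lost without INPUT replicate 12 (0.17, adjusted p = 0.057). Of the 7 alpha genes, 4 were lower in naïve mice and 3 did not pass the test, with a median of −0.43. After the median rescaling 4 were higher and only Psma3 lower.

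The constitutive beta ring was more even, with naïve log2 differences between −0.40 (Psmb1) and −0.03 (Psmb6), 4 of 7 lower and 3 not called. All 7 lay above the median gene in naïve and in stressed mice, and after the rescaling all 7 were called higher in naïve mice and 6 of 7 in stressed mice. The 3 catalytic subunits were Psmb5 (chymotrypsin-like site) at −0.24 ± 0.13, Psmb6 (caspase-like site) at −0.03 ± 0.074 and Psmb7 (trypsin-like site) at −0.37 ± 0.072, of which Psmb7 passed the test, and all 3 were above 0 after the median rescaling (0.40, 0.62 and 0.27). Psmb6 had 73.6 to 81.9 CPM in naïve IP and 72.9 to 92.4 CPM in naïve INPUT, so its IP range lay within its INPUT range.

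The 6 ATPases of the 19S base, which unfold the substrate, were all lower in IP in naïve and in stressed mice. For all 6 the IP and INPUT libraries did not overlap, which held for 83.7% and 81.4% of all genes. Psmc1 (Rpt2) had 60.1, 65.8, 66.0 and 68.97 CPM in naïve IP and 132, 137, 138 and 146 CPM in naïve INPUT. That is a log2 difference of −1.09 ± 0.058, and in stressed mice it was −1.05 ± 0.070. Psmc3 and Psmc5 followed at −0.85 ± 0.057 and −0.82 ± 0.051. The smallest difference was that of Psmc4, −0.48 ± 0.062, which turned to 0.16 after the median rescaling. Relative to the median gene the ring was split, since Psmc1, Psmc3 and Psmc5 lay under it and Psmc2, Psmc4 and Psmc6 above it in both naïve and stressed mice. The median rescaling called the first 3 lower and 1 of the 6 higher, Psmc4 in naïve and Psmc6 in stressed mice.

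The 11 other 19S subunits with a Psmd symbol held 9 genes lower in IP, Psmd11 higher and Psmd13 not called (−0.07 ± 0.077). The lowest was the lid subunit Psmd12, at −0.73 ± 0.063 in naïve and −0.54 ± 0.064 in stressed mice (0.09 in stressed mice after the median rescaling). After that rescaling 7 of the 11 were called higher and 0 lower in each comparison. Their median was −0.36 in naïve and −0.45 in stressed mice. Psmd14, the deubiquitinase of the lid that removes the ubiquitin chain, was at −0.63 and −0.57. After the median rescaling Psmd14 was at 0.01 and 0.06, with neither called.

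Genes for the assembly of the particle differed among themselves. Among chaperones of the 19S base, Psmd10 (gankyrin) was lower on the CPM scale, at −0.84 ± 0.12 in naïve mice. After the median rescaling Psmd10 was at −0.21 in naïve and −0.04 in stressed mice, with neither called. Psmd9 was 0.17 ± 0.12, with 15.6 to 18.6 CPM in naïve IP and 13.1 to 18.8 CPM in naïve INPUT. Psmd9 did not pass the test there or in stressed mice (0.13 ± 0.083), where its libraries did not overlap. Among the 4 chaperones that pair up alpha subunits, Psmg3 was lower, at 1.57 to 2.91 CPM in naïve IP and 3.29 to 4.58 CPM in naïve INPUT (−0.92 ± 0.21, but 0.08 after quantile normalization), and the other 3 did not pass the test in either comparison. Psmg4, at −0.05 ± 0.26, rested on 21 to 60 reads per library.

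Caps that can replace the 19S on the core included genes that were called and genes that were not. Psme4 (PA200) was lower in IP at −0.80 ± 0.061 and Psme3, the nuclear activator, at −0.70 ± 0.057. After the median rescaling Psme3 was at −0.06 and not called in naïve mice, and Psme4 at −0.16 and not called in stressed mice. The interferon-responsive activator pair was Psme1, at −0.11 ± 0.081, and Psme2, at −0.53 ± 0.25, neither called in naïve mice and both called lower in stressed mice (−0.27 ± 0.094 and −0.62 ± 0.19). Both were above 0 after quantile normalization, at 0.48 and 0.62 in naïve and 0.32 and 0.56 in stressed mice. The regulator Psmf1 was at −0.07 ± 0.080 in naïve and 0.03 ± 0.091 in stressed mice, with neither called. Psme2 shares 53.4% of its windows with Psme2b, and Psme2b shares 62.0% of its own with Psme2, so the counts of this pair are uncertain. Psme2b was at −0.31 ± 0.13 (adjusted p = 0.038), a call that 6 of the 8 left-out libraries ended, and Psmc3ip at −0.15 ± 0.25.

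Of the immunoproteasome subunits, Psmb8 and Psmb9 were near or under 1 CPM, while Psmb10 was well above it and lower in IP under all 3 scalings. Psmb10, on chr8:105935735-105938444 (minus strand), had 12.3, 12.9, 14.1 and 15.3 CPM in naïve IP and 24.4, 26.3, 27.5 and 27.8 CPM in naïve INPUT. Its log2 difference was −0.96 ± 0.089 in naïve mice and −1.24 ± 0.13 in stressed mice, which had 9.63, 12.2, 12.4 and 15.2 CPM in IP and 26.9, 27.8, 27.9 and 33.9 CPM in INPUT. No IP library reached an INPUT library in either comparison.

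Psmb8, on chr17:34197721-34201454 (plus strand), rested on 10 to 43 reads per library. In naïve mice it had 0.658, 0.666, 0.717 and 0.979 CPM in IP and 1.22, 1.47, 1.496 and 1.65 CPM in INPUT, all 4 IP libraries being lower (−0.87 ± 0.23, limma adjusted p = 0.0031), but the sign turned to 0.53 after quantile normalization. In stressed mice the ranges overlapped, 0.446 to 1.73 CPM in IP and 1.07 to 2.44 CPM in INPUT, and the call was missed (−0.81 ± 0.39, adjusted p = 0.068). Psmb9 was under the limit of 1 CPM and was not fitted. It had 0.155, 0.196, 0.196 and 0.403 CPM in naïve IP and 0.508, 0.599, 0.610 and 0.824 CPM in naïve INPUT, from 2 to 17 reads per library, and an exact permutation p of 0.029. Its stressed libraries overlapped (0.0892 to 0.542 CPM in IP, 0.366 to 0.776 CPM in INPUT, exact permutation p = 0.17).

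**Figure D2:**
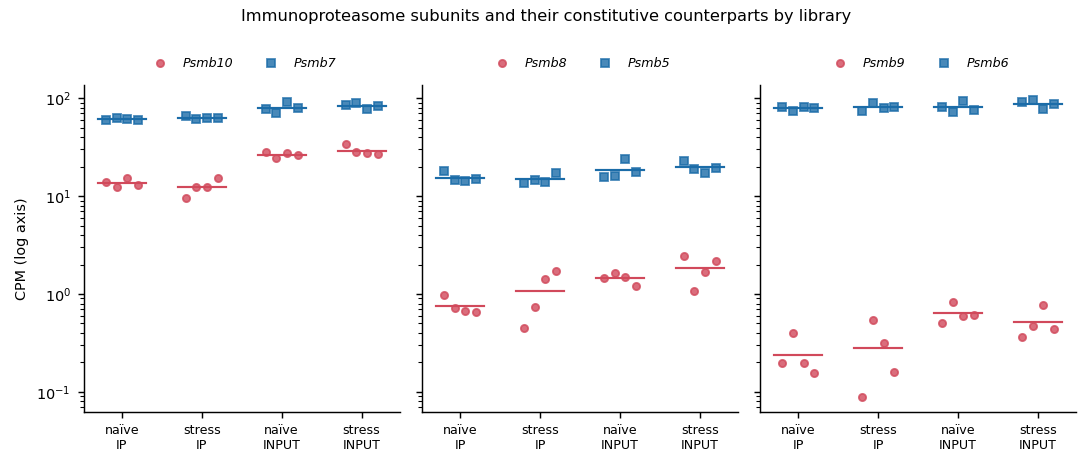
CPM (y axis, log scale) of each immunoproteasome subunit (red circles) and its constitutive counterpart (blue squares) in the 4 libraries of each group (x axis), with a line at the group mean. Psmb10, Psmb8 and Psmb9 lie under Psmb7, Psmb5 and Psmb6 in every library, and the naïve IP libraries lie under the naïve INPUT libraries for all 3 red genes.

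The share of each immune subunit in its pair was taken per exon length (CPM per kb of exon). Psmb10 made 16.5% ± 1.4 (SD, n = 4) of Psmb10 plus Psmb7 in naïve IP and 22.9% ± 1.2 in naïve INPUT, with 14.8% ± 2.5 and 23.6% ± 1.9 in stressed mice. Psmb8 made 2.62% ± 0.24 of its pair with Psmb5 in naïve IP and 4.32% ± 1.0 in naïve INPUT. In stressed mice Psmb8 made 3.77% ± 1.8 in IP and 4.86% ± 1.3 in INPUT, with ranges that overlapped. Psmb9 made 0.181% ± 0.095 and 0.472% ± 0.14 of its pair with Psmb6 in naïve mice. In stressed mice its shares were 0.196% ± 0.13 in IP and 0.354% ± 0.16 in INPUT, and the ranges overlapped. The shares of Psmb8 are uncertain because 44.0% of the windows of Psmb5 occur in other transcripts, those of Gm3375 above all, and the shares of Psmb10 because 25.1% of those of Psmb7 do. In these bulk libraries fewer cells of a type and less RNA per cell cannot be told apart. Summed markers of every other cell type listed moved the same way as these genes and further, though Cnp alone went the other way. The 9 microglia markers summed to 22.9 to 29.6 CPM in naïve IP and 280 to 303 CPM in naïve INPUT. The 7 endothelial markers summed to 11.4 to 18.6 CPM and 69.6 to 102 CPM. For the 8 neuron markers the sums were 470 to 607 CPM and 10550 to 11030 CPM. For the 7 oligodendrocyte markers they were 277.9 to 325.5 CPM and 1636 to 1806 CPM. The part of these cell types in the immunoproteasome values was not tested.

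The thymus-specific beta subunit Psmb11 and the testis-specific alpha subunit Psma8 were under the limit as well. Psmb11 had at most 5 reads in any library, with 0 reads in 4 of the 8 IP libraries. Psma8 had 0.147 to 0.627 CPM in naïve IP and 0.0997 to 0.226 CPM in naïve INPUT, which overlapped.

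Antigen presentation genes were taken as a list of 10. The list was not limited to genes that act on peptides and also held Calr, Canx and Pdia3. In naïve mice 7 were higher in IP and 2 lower, beside 23.7% and 64.0% of all genes. The list median was 0.75 beside −0.64 for all genes, and all 10 lay above the median gene. Psmb9 and Psmb8 lie in the same stretch of chromosome 17 as the peptide transporter genes Tap1 (from 34187553) and Tap2 (from 34203527). Tap1 and Tap2 were higher in IP, at 0.88 and 1.57 in naïve mice; they were singled out for this position after their values were seen. Psmb9 shares 11.2% of its windows with other transcripts, all of them of Tap1. The highest of the list were H2-K1, a class I heavy chain (69.8 ± 3.5 CPM in naïve IP, 13.7 ± 1.1 CPM in naïve INPUT, log2 difference 2.34), and Erap1, a peptide-trimming enzyme (2.00). The lowest were H2-D1 and B2m (−0.46 each), the 2 called lower, whose direction is that of the CPM scale. None of the 10 was called between stressed and naïve mice.

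Levels between genes were compared per kb of exon. In naïve IP, Psmb6 was highest of the constitutive beta ring at 98.7 CPM per kb and Psmb3 lowest at 16.6. The alpha ring ran from 57.0 (Psma4) to 2.55 CPM per kb (Psma3), a 22.3-fold range. The exon length, taken over all RefSeq transcripts of a gene, was 2.846 kb for Psma3 and 1.165 kb for Psma4. In CPM of naïve IP Psma4 had 66.4, Psma3 7.27 and Psma5, the lowest of the ring, 3.81. In naïve INPUT Psma5 was also lowest per kb, with a 12.1-fold range. In naïve IP the 6 ATPases stayed within 2.14-fold, from 25.4 (Psmc6) to 54.4 (Psmc5). Within each ring the subunits occur in equal number. The 5 subunits of the 20S and 19S with over 20% of windows shared with other transcripts (Psma3, Psma5, Psmb3, Psmb5 and Psmb7) had a median of 16.6 CPM per kb in naïve IP, and the other 26 had 35.05, with 14.9 CPM per kb (Psmd11) as the lowest. The part of shared sequence or of exon length in these levels was not tested. Chaperones stood lower, with medians of 5.115 CPM per kb for the 19S and 5.145 for the 20S chaperones.

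**Figure D3:**
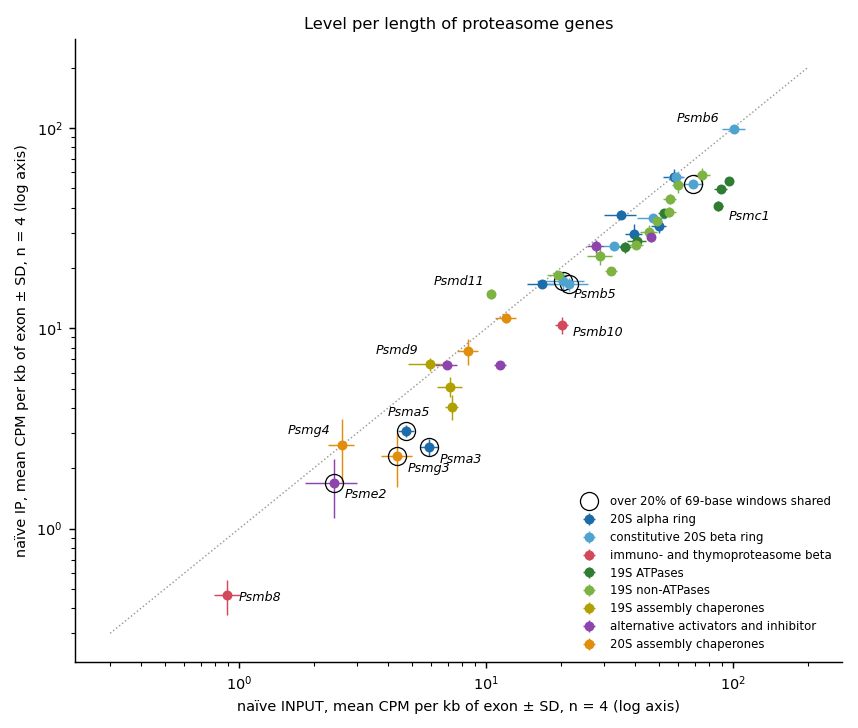
Mean CPM per kb of exon in naïve INPUT (x axis) and naïve IP (y axis) for the 45 proteasome genes with a known role, both axes log, with SD over 4 libraries. The dotted line marks equal values, colours mark roles, and rings mark genes with over 20% of windows shared. Most points run under the line, while Psmd11, Psmd9 and Psma6 are above it and Psmg4 is close to it. The ringed Psma3 and Psma5 lie far under the rest of the alpha ring.

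No proteasome gene passed the threshold between stressed and naïve mice. In IP, 45 of the 47 genes passed the filter and 0 were called by limma, against 0.440% of all 12501 genes, and 0 had an unadjusted p under 0.05. In INPUT 0 of 47 were called (0.0442% of all genes), with 2 at an unadjusted p under 0.05. The difference between the stress effects in IP and INPUT was called for 0 of 47 (0.0225% of all genes), with 1 at an unadjusted p under 0.05, Psmd12 (0.19 ± 0.083). limma-voom on the recovered reads also called 0 in each of these 3 comparisons, and so did the fits without any 1 library. Among them is the fit without naïve IP replicate 11, which raised the genes called over the whole table in IP from 55 to 122.

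The intervals bound how large an effect could have been missed. In IP the fitted effects ran from −0.15 (Psmb10) to 0.16 (Psmb4) with a median standard error of 0.075, and for 41 of the 45 genes the 95% interval lay within 0.5 either way on the log2 scale. In INPUT they ran from −0.15 (Psmd11) to 0.56 (Psmg4), and 44 of the 47 intervals lay within 0.5. The values were above 0 for 34 of 45 genes in IP and 36 of 47 in INPUT, where 48.9% and 48.8% of all genes were above 0, and the medians were 0.04 and 0.05. Per the methods IP and INPUT were taken from the same mice, so these counts in IP and INPUT are not independent.

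**Figure D4:**
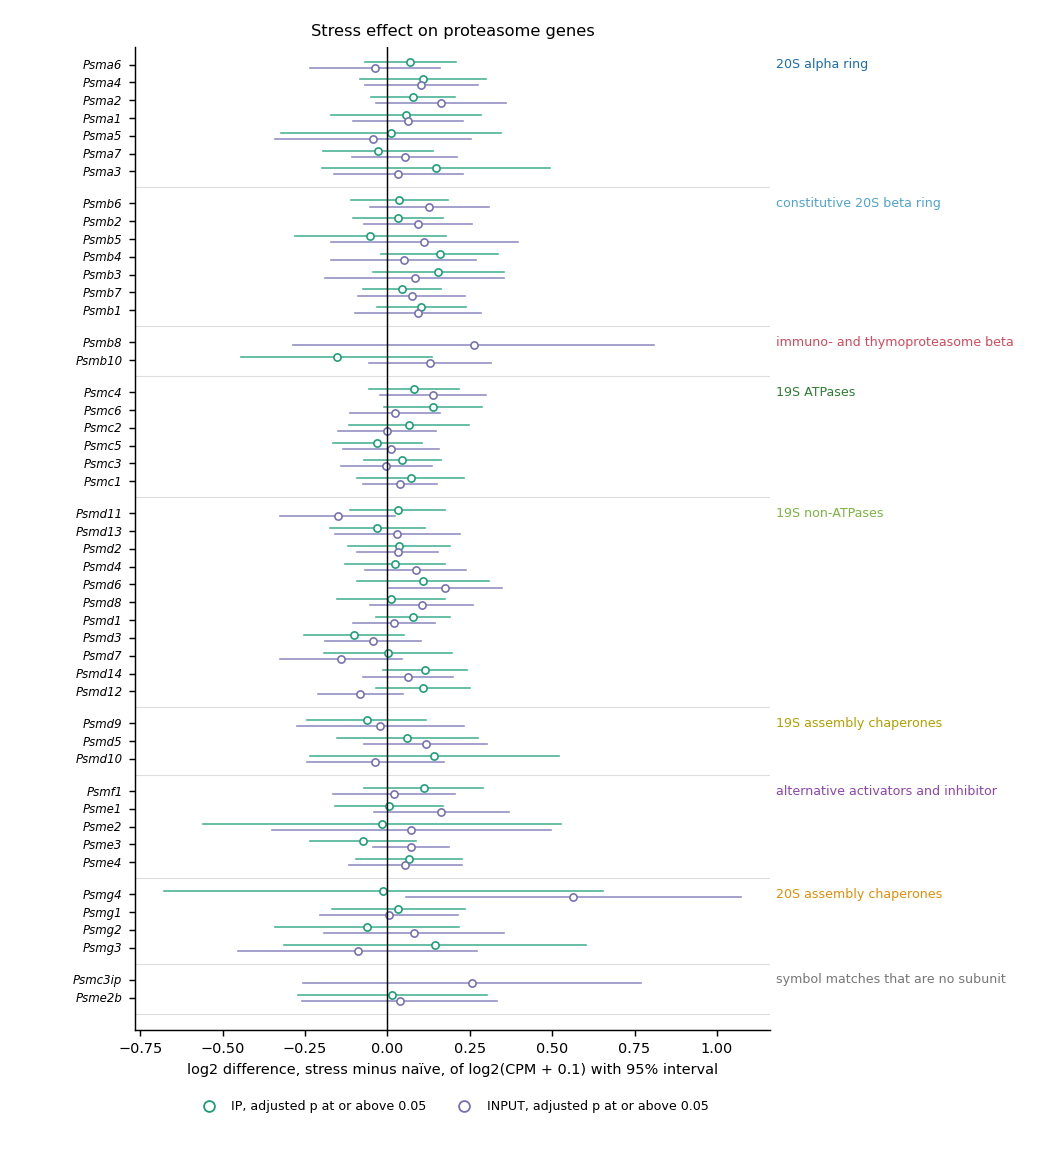
Difference in log2(CPM + 0.1) between stressed and naïve mice (x axis) in IP (green) and INPUT (purple) for each proteasome gene (y axis, by role), with 95% intervals; open points mark adjusted p at or above 0.05. All points are open and most lie within 0.2 of 0; Psmb8 and Psmc3ip had a mean under 1 CPM over the 8 IP libraries and have no green point.

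The members nearest to the threshold in IP were Psmc6, Psmd14 and Psmb4. Psmd14 had 39.2, 39.8, 40.9 and 41.0 CPM in the naïve libraries and 42.4, 42.8, 43.9 and 45.2 CPM in the stressed ones, without overlap. The effect was 0.12 ± 0.058 (limma adjusted p = 0.66). Groups did not overlap for 2 of the 45 members tested in IP, Psmd14 and Psma2, beside 5.00% of all genes. Psma2 had 47.5 to 49.4 CPM without stress and 49.7 to 54.2 CPM after it (0.08 ± 0.058, not called). Psmc6 had 52.3 to 59.9 CPM without stress and 57.8 to 66.3 CPM after it (0.14 ± 0.068), and Psmb4 29.7 to 31.5 and 29.9 to 37.7 CPM (0.16 ± 0.081), both with overlap.

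In INPUT they were Psmg4, Psmd6 and Psmd11. Psmg4 had 1.24, 1.41, 1.48 and 1.65 CPM in naïve INPUT and 1.42, 2.07, 2.56 and 2.92 CPM in stress INPUT, so 3 of the 4 stressed libraries were above the naïve ones (0.56 ± 0.24, limma adjusted p = 0.96). Psmd6 had 35.8 to 46.8 CPM in naïve and 44.2 to 47.2 CPM in stress INPUT (0.18 ± 0.080), and Psmd11 29.2 to 31.2 and 23.6 to 30.3 CPM (−0.15 ± 0.081). Neither was called, and the groups overlapped for each. Of the 6 genes with the TGACNNNGC core shown above, the effect in IP was −0.05 for Psmb5, 0.04 for Psmb6, −0.06 for Psmd9, 0.07 for Psme4, 0.14 for Psmc6 and 0.11 for Psmd12, none called.

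Transcription regulators of proteasome genes were a list of 14, of which 12 were tested in naïve mice, 4 higher in IP and 8 lower, near the 23.7% and 64.0% of all genes, with a median of −0.52 beside −0.64 for all genes. Nfe2l2 (NRF2) had 107 ± 8.7 CPM in naïve IP and 15.1 ± 0.79 CPM in naïve INPUT, with all IP libraries above all INPUT libraries (log2 difference 2.83), and Stat3 was at 1.46. Nfe2l1 (NRF1), named here for its role and not by the rule, went the other way, with 248 ± 13 and 389 ± 16 CPM (−0.65), which is close to the median gene. Nfyb, a subunit of the CCAAT-binding factor NF-Y, and Mafg, a small Maf partner of both NRFs, were lowest, at −1.64 and −1.58. No regulator was called between stressed and naïve mice.

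Partners of the particle, a list that also holds Adrm1, Shfm1 and Pomp, have no symbol of the form searched. In naïve mice 7 of the 9 partners were lower in IP and 1 higher, beside 64.0% of all genes lower and 23.7% higher. Their median was −0.87, and 4 of the 9 were above the median of all genes, −0.64, so that the direction of these is that of the CPM scale. The deubiquitinase Uchl5, bound to the 19S, was at −1.78 (12.4 ± 0.65 CPM in naïve IP, 43.0 ± 2.7 CPM in naïve INPUT) and the ligase Ube3c at −1.63. The ligase Ube3a was highest at 0.14, with 25.9% of its windows shared, followed by Txnl1 at −0.13, which was not called. Of 18 ubiquitin and shuttle genes 13 were lower and 3 higher, which is near the shares of all genes, and 10 of the 18 were above the median of all genes (list median −0.53). The ubiquilin Ubqln2 was among those higher (0.38), and the ubiquilin Ubqln4 (−1.62) and Zfand5 (−1.55) were lowest. None of these 27 genes was called between stressed and naïve mice in IP or in INPUT, among those that passed the filter there.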

How the data were processed

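Libraries from 4 groups of 4 were compared. Per the labels and methods, ribosomal RNA was depleted, libraries were sequenced in 1 pool, and reads were aligned by STAR against mm10, and HTSeq gave the fragments that mapped uniquely to each RefSeq gene. The authors deposited 1 table of log2 CPM per library. Values were turned back to CPM and to whole reads. The design foresaw FPKM, CPM or counts, and its test for normalized values was used.

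Groups were fitted with limma 3.58.1 in R 4.3.3 (eBayes with a variance trend) on log2(CPM + 0.1), keeping genes whose mean exceeded 1 CPM across the compared libraries, at a Benjamini-Hochberg adjusted p under 0.05, on 8 libraries or, for the difference between stress effects, 16. A fold change on this scale understates the change of low genes. Exact permutation tests were two-sided over 70 labelings. The fit was tested on simulated data. P-values treat libraries as independent, although per the methods IP and INPUT were taken from the same mice. Members and gene lists were chosen with earlier results of these data known. Named genes were the highest and lowest of each role, the immunoproteasome and its counterparts, the activators and inhibitor, the 3 smallest p of each stress comparison, symbols under the limit, and the 2 highest and 2 lowest of each associated list; 1 gene so named is not reported here. Exon lengths, positions and shared 69-base windows came from GENCODE M21 (GRCm38). Alternatives were pseudocounts of 1 and 0.01, other filters, 2 rescalings, limma-voom, array weights, no trend, 1 model of 16 libraries and each library left out.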

Additional observations from a re-analysis of the deposited data

Results flagged for a closer look

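In 6 of 188 groups of 4 libraries 1 library stood apart from the other 3 by Dixon's criterion, where chance flags about 1 in 20. Stress IP replicate 5 was high for Psma2 (54.2 CPM against 49.7 to 50.2 CPM), and stress IP replicate 4 for Psmc3 (86.1 CPM against 82.5 to 83.0 CPM). Stress INPUT replicate 1 was high for Psma5 (7.198 CPM against 5.11 to 5.34 CPM) and for Psmb10 (33.9 CPM against 26.9 to 27.9 CPM). Naïve INPUT replicate 7 was low for Psmd13 (33.3 CPM against 40.1 to 41.2 CPM), and naïve IP replicate 11 was low for Psmd3 (75.1 CPM against 83.5 to 85.0 CPM). None of these genes was called between stressed and naïve mice with or without the library.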

How the results depend on the processing

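No paired analysis was possible because the groups share no replicate numbers and the labels do not tie an IP to its INPUT. The direction of IP against INPUT rested on scaling. Rescaling by the median ratio gave 25 genes higher and 6 lower in naïve mice (median 0.25) and 23 and 6 in stressed mice (0.18). Quantile normalization gave 23 and 8 (0.21) and 19 and 7 (0.19). Of the 44 genes below 0 in naïve mice, 33 turned above 0 with the median ratio and 29 with quantile normalization, and of the 43 in stressed mice 30 and 32. Among the 23 genes named for IP against INPUT, those that turned with the median ratio in naïve mice were Psmb1 0.25, Psmb5 0.40, Psmb6 0.62, Psmb7 0.27, Psmc3ip 0.44, Psmc4 0.16, Psme1 0.53, Psme2 0.081, Psme2b 0.32, Psmf1 0.57 and Psmg4 0.55, and in stressed mice Psmb1 0.25, Psmb5 0.23, Psmb6 0.52, Psmb7 0.23, Psmc3ip 0.16, Psmc4 0.10, Psmd12 0.095, Psme1 0.36 and Psme2b 0.29. With quantile normalization they were in naïve mice Psmb1 0.12, Psmb5 0.40, Psmb6 0.49, Psmb7 0.15, Psmb8 0.53, Psmc3ip 1.265, Psmc4 0.053, Psme1 0.48, Psme2 0.62, Psme2b 0.50, Psmf1 0.53, Psmg3 0.081 and Psmg4 1.23, and in stressed mice Psmb1 0.14, Psmb5 0.23, Psmb6 0.41, Psmb7 0.12, Psmb8 0.56, Psmc3ip 1.05, Psmd10 0.084, Psmd12 0.044, Psme1 0.32, Psme2 0.56, Psme2b 0.47, Psmg3 0.35 and Psmg4 0.63. Array weights turned Psmg4 in naïve mice to 0.0295. These turns follow from the shift of the median gene under rescaling; for the quantile values of genes with few reads and for Psmg4 the cause was not tested.

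With each library left out in turn, 31 to 33 genes were called in naïve mice (1 to 3 higher, 30 to 31 lower, median −0.47 to −0.32) and 32 to 37 in stressed mice (1 to 2 higher, 30 to 35 lower, median −0.48 to −0.40). The 3 higher were without INPUT replicate 14, where Psma6 and Psmd9 joined Psmd11. These fits covered all members, but the sign of single values was followed for the named genes only. Among the named genes the sign of 3 uncalled values turned. The ranges were −0.071 to 0.043 for Psmb6 and −0.22 to 0.16 for Psmg4 in naïve mice, and −0.018 to 0.095 for Psmf1 in stressed mice. The 3 stress comparisons gave 0 called genes throughout. Of the other values of single genes, 867 kept direction and side of the threshold, 23 passed it and 29 no longer did. Genes with few reads, such as Psmb8, Psme2 and Psmg4, had some of the widest intervals.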
